A study of Homo sapiens with 118 samples.

Results

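The aryl hydrocarbon receptor pathway was followed in HepaRG, a human liver line grown in the differentiated state, during exposure to 8 histone deacetylase inhibitors. The genes were CYP1A1, CYP1A2, CYP1B1, AHR, ARNT, AHRR and TIPARP. Their rows were found by matching the symbol that precedes the probe number in each row name of the count table, which gave 10 of 22069 probe rows, and 7 of 19470 symbols. CYP1A1, CYP1A2 and AHRR each had 2 probes. The inhibitors were the hydroxamic acids panobinostat, scriptaid, trichostatin A and vorinostat, the benzamides mocetinostat and tacedinaline, the cyclic tetrapeptide apicidin and the short-chain fatty acid valproic acid. Each was given at 5 concentrations, named C1 (lowest) to C5, for 72 hours with daily renewal in an induction medium of the cell supplier that all groups shared. C1 and C5 were 0.041722 and 0.86 µM for apicidin, 0.177222 and 3.9 µM for mocetinostat, 0.001468 and 0.084 µM for panobinostat, and 4.94 and 94.5 µM for scriptaid. They were 1.143333 and 44 µM for tacedinaline, 0.018811 and 1.5237 µM for trichostatin A, and 0.404778 and 23.5 µM for vorinostat. For valproic acid the dose label ran from 100.478 to 3038 in a unit that the labels leave unclear. The 118 libraries fell into 40 groups, of which 38 held 3 libraries, and panobinostat C3 and trichostatin A C4 held 2 each. Replicates 1, 2 and 3 were 3 different batches of the HepaRG line. Libraries of scriptaid, tacedinaline and vorinostat lay on plate E and those of the other 5 chemicals on plate H. Solvent controls were not analysed here, so every change is relative to C1 of the same chemical, and whatever had already happened at C1 stays hidden.

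AHR is a ligand-activated transcription factor that waits in the cytosol in a complex with the chaperone HSP90 and moves to the nucleus when it binds an aromatic ligand. There it pairs with ARNT and binds a short DNA core, the xenobiotic response element, beside target genes, of which CYP1A1, CYP1A2 and CYP1B1 encode enzymes that oxidise planar aromatic compounds. AHRR, the receptor's repressor, competes for ARNT, and TIPARP, a mono-ADP-ribosyltransferase, lowers AHR activity in a feedback loop. In liver, CYP1A2 is the form known for its expression without an inducer and CYP1A1 the form known for its strong induction.

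The response element core GCGTG was searched on both strands in the 250 bases upstream of the RefSeq transcript starts (GRCh38.p14), because the CYP1 genes moved together in some groups below. Of the 7 genes, 6 matched the promoter table, with 9 windows. CYP1A1 and CYP1A2 are shown as neighbours on chromosome 15 of which only the CYP1A1 window held the core, and TIPARP as a further target gene, with 2 cores in its first window. Capitals mark the core, read on either strand, so that CACGC is the core on the other strand. The CYP1A1 window was chr15:74725529-74725778 on the minus strand, the CYP1A2 window chr15:74748595-74748844 on the plus strand and the first TIPARP window chr3:156674340-156674589 on the plus strand.
CYP1A1: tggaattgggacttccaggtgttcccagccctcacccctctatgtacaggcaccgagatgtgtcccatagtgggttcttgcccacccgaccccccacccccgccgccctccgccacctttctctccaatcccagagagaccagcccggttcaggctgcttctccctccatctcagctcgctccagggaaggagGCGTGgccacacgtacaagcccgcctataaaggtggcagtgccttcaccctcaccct
CYP1A2: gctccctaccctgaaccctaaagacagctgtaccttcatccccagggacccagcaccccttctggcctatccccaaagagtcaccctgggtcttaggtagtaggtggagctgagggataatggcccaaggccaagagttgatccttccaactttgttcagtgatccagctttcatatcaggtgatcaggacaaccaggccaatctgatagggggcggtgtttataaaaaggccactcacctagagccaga
TIPARP: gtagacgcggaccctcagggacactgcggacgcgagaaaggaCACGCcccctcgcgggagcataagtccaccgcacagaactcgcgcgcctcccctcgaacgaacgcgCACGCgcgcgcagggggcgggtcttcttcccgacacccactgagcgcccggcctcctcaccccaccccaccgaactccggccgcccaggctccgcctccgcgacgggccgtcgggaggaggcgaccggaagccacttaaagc
The core began 57 bases before the start of CYP1A1, and 208 and 142 bases before that of TIPARP. The AHRR windows held 1 and 2 cores, whereas the AHR and ARNT windows and the other 2 TIPARP windows held none. Of 35116 windows of the same length, 32.2% held the core, so a match in this window is common. The longer form TNGCGTG, which contains the core, was found in 1 member window, of AHRR, and in 4.52% of all windows. These matches describe letters and not bound sites.

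Counts per library totalled 1061359 to 5250260, with a median of 3702007. Levels are given as CPM, counts per 1000000 counts of the library, after trimmed-mean scaling over the 118 libraries. They are compared between groups for 1 probe and not between genes, since probes differ in efficiency. A change is a log2 ratio to C1 from edgeR's quasi-likelihood fit of each chemical, with its standard error (SE), and it was called where the Benjamini-Hochberg adjusted p over all features tested was under 0.05 and the fold at least 1.5. The trend is the change from C1 to C5 fitted along log2 concentration. Of the 10 rows, AHR_23752, ARNT_14705, CYP1A1_10775, CYP1B1_17315 and TIPARP_7116 passed the filter on low counts in 8 chemicals. CYP1A2_82402 passed in 7, CYP1A1_1698 in 6 and CYP1A2_1699 in scriptaid only, which gave 54 tests per comparison. Both AHRR rows passed in none. Probes such as CYP1A1_1698 and CYP1A2_1699 passed largely through the groups in which they were high, so counts over the tests do not weigh for or against the genes as a set.

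Markers of other cell types were read beside the members, because HepaRG cultures hold hepatocyte-like and biliary-like cells. Over the C1 libraries the medians of the 15 hepatocyte features ran from 15.7 CPM (HNF4A) to 22453 CPM (albumin, ALB_217). Those of the 10 biliary features ran from 0 CPM, as in CFTR and EPCAM, to 37.1 CPM in KRT19_10816, with 23.1 CPM in SOX9 and 7.26 CPM in SPP1. Those of the 13 stellate or mesenchymal features ran from 0 CPM, as in THY1 and COL1A2, to 83.5 CPM in LUM, with 33.1 CPM in ACTA2 and 26.9 CPM in PDGFRB. The markers named at C1 were chosen after their values were seen. At C5 the 15 hepatocyte marker features fell in 14 cases in apicidin, 15 each in mocetinostat, scriptaid, tacedinaline and vorinostat, 13 each in panobinostat and valproic acid, and 0 in trichostatin A. The summed hepatocyte markers in scriptaid were 40753 to 45191 CPM at C1, 12543 to 16950 at C4 and 5345 to 8150 at C5, and in vorinostat 36367 to 45942 at C1, 21645 to 32793 at C3 and 3474 to 6479 at C5. The summed biliary markers in scriptaid were 90.7 to 96.7 CPM at C1 and 91.5 to 152 at C5, and the stellate or mesenchymal ones 194 to 235 and 148 to 172. In these lysates fewer cells of a type and less RNA per cell cannot be told apart, and the part of these shifts in the member changes was not tested.

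At C5 the members rose in 18 of 54 tests and fell in none, where 11.6% of all feature tests over the 8 chemicals rose and 13.4% fell. The 3 falls at an unadjusted p under 0.05 did not pass the adjustment in edgeR, and DESeq2 also called 0 falls, with 21 rises. By chemical, 4 of 8 tested rows rose in scriptaid, beside 12.8% of all its features, and 4 of 7 in vorinostat, beside 22.7%. In apicidin 3 of 7 rose (background 13.8%), in panobinostat 2 of 7 (6.77%), in valproic acid 2 of 7 (4.84%), in tacedinaline 2 of 5 (18.7%) and in mocetinostat 1 of 7 (14.8%). In trichostatin A 0 of 6 were called by edgeR and by DESeq2, and 0% of all features rose. There 1 had an unadjusted p under 0.05 (CYP1B1, -1.26, or -0.65 without replicate 3 of C1). Without replicate 3 of every group CYP1A2_82402 was called there (adjusted p = 0.0298), with 0 counts in both remaining C1 libraries. By trend 19 of the 54 tests rose and 0 fell, where 12.7% of all features rose and 12.7% fell. Among the falls by trend, 2 had an unadjusted p under 0.05 in edgeR, 1 of them also passed the adjusted p but not the fold, and DESeq2 called 1.

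**Figure D1:**
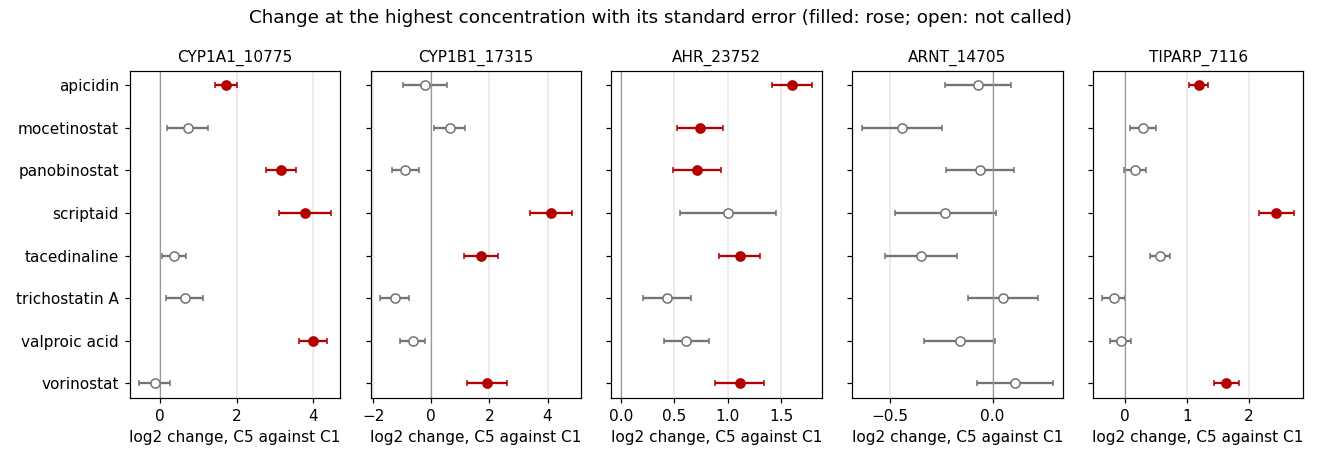
Log2 change at C5 against C1 (x axis) with its standard error for 5 member probes in 8 chemicals (rows), n = 3 libraries per group. Filled points are called rises and open points are not called. CYP1A1 spans -0.14 in vorinostat to 3.99 in valproic acid, while ARNT stays between -0.44 and 0.11. The x axes differ between panels.

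CYP1A1, the inducible CYP1 enzyme, gave the largest member changes, and its highest level lay at C4 in scriptaid. In scriptaid CYP1A1_10775 stood at 20.1, 21.4 and 20.6 CPM at C1 (replicates 1, 2 and 3) and at 20.3, 82.7 and 78.8 CPM at C2. It reached 331, 936 and 1232 CPM at C3, and 1881, 1528 and 5206 CPM at C4. At C5 it was back at 401, 346 and 70.1 CPM. Every C3 library lay above every C1 library, the C4 libraries all lay above the C3 ones, and the C5 libraries lay above C1, with replicate 3 inside the C2 range. The log2 change was 5.34 at C3 (SE 0.719, adjusted p = 0.00121), 7.17 at C4 (SE 0.779, adjusted p = 7.95e-05, a 144-fold rise) and 3.78 at C5 (SE 0.673, adjusted p = 0.000363) by edgeR.

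**Figure D2:**
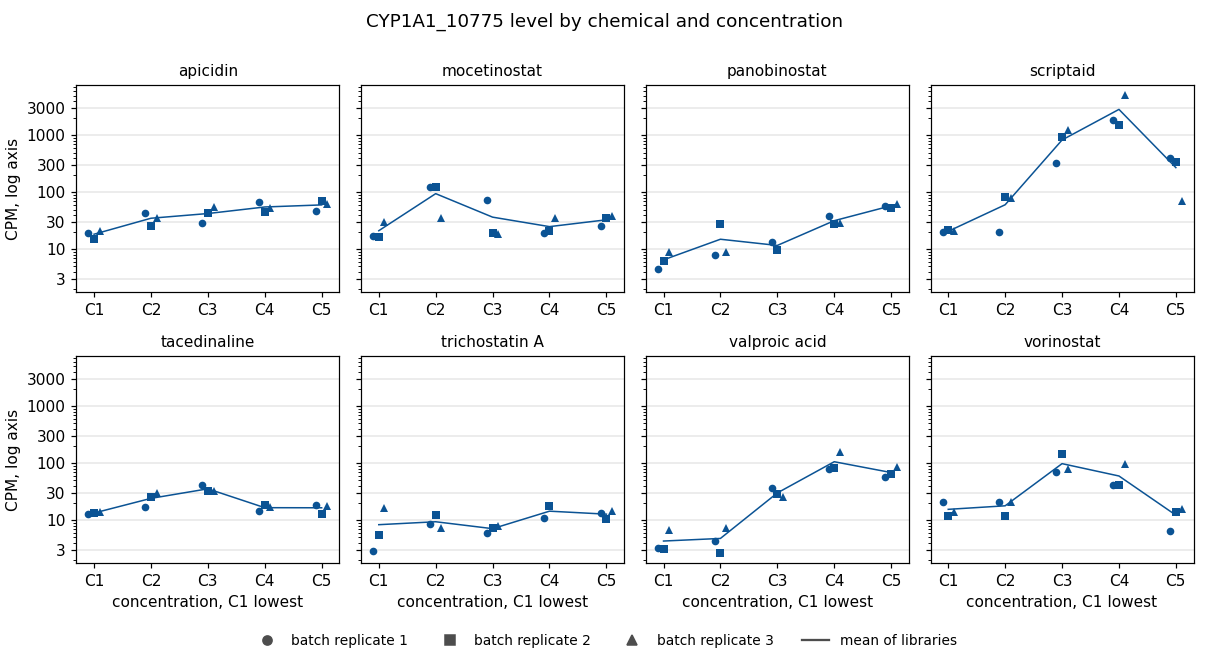
CYP1A1_10775 level in CPM (log axis) at 5 concentrations (C1 to C5, x axis) of each chemical. Symbols are single libraries by HepaRG batch and lines join group means. Scriptaid climbs from 20.1 to 21.4 CPM at C1 to 1528 to 5206 CPM at C4. The highest value, replicate 3, is the library in which the CYP1A1 probes disagreed. Tacedinaline and trichostatin A remain between 2.89 and 41.7 CPM.

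In valproic acid CYP1A1_10775 was 3.2, 3.05 and 6.56 CPM at C1, and 35.8, 28.3 and 25.6 CPM at C3. It was 78.9, 81.3 and 157 CPM at C4, and 55.9, 64.5 and 84.4 CPM at C5. All libraries from C3 upwards lay above those of C1 and C2. The log2 change was 2.79 at C3, 4.63 at C4 (SE 0.378, adjusted p = 2.24e-08, 24.7-fold) and 3.99 at C5 (SE 0.374, adjusted p = 1.51e-07, 15.9-fold) by edgeR. At C3 this probe was 1 of 7 member rows called, where 0.293% of all features rose. In panobinostat the probe was 4.55, 6.2 and 8.81 CPM at C1, 38.2, 28 and 29.2 at C4, and 57.1, 53.8 and 63.6 at C5. The C4 and C5 libraries lay apart from C1, and the change was 2.28 at C4 (adjusted p = 0.00242, where 1.16% of features rose and this was 1 of 7 member rows) and 3.16 at C5 (SE 0.394, adjusted p = 6.48e-06, 8.93-fold) by edgeR. In apicidin it was 19.3, 14.9 and 21 CPM at C1 and 46.3, 71.1 and 63.2 CPM at C5. These groups did not overlap, and the change was 1.72 (SE 0.28, adjusted p = 8.04e-05), after 1.21 at C3 and 1.60 at C4.

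In vorinostat CYP1A1_10775 was highest at C3 and back at its C1 level at C5. The libraries held 20.7, 11.8 and 13.7 CPM at C1, 69, 146 and 78.5 at C3, 40.5, 40.7 and 96.9 at C4, and 6.53, 14.1 and 15.9 at C5. The C3 and C4 libraries lay above all C1 and C5 libraries. The change was 2.75 at C3 (SE 0.352, adjusted p = 1.85e-06), 2.05 at C4 (adjusted p = 1.77e-05) and -0.14 at C5 (SE 0.402, adjusted p = 0.799) by edgeR. Tacedinaline had its highest group at C3 too, with 41.7, 31.9 and 32.4 CPM there against 12.6, 13.3 and 13.9 CPM at C1. That change was 1.42 (SE 0.315, adjusted p = 0.00101), and the C5 value was 0.36 (adjusted p = 0.386). In mocetinostat the highest group was C2, with 123, 126 and 35.9 CPM against 16.9, 16.3 and 30.4 CPM at C1. Replicate 3 lay close to C1 there, and the change of 2.25 missed the threshold (adjusted p = 0.0844), while without replicate 3 it was 3.00 (adjusted p = 0.00344) by edgeR.

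In trichostatin A CYP1A1_10775 was 2.89, 5.54 and 16.4 CPM at C1 and 13.3, 10.5 and 14.2 CPM at C5. The groups overlapped through replicate 3 of C1, and the change was 0.64 (SE 0.486, adjusted p = 0.715). Without that 1 library it was 1.61 (SE 0.46, adjusted p = 0.105) by edgeR. The same library was the high one at C1 for CYP1B1 (25.7 CPM, against 8.23 and 11.7) and for CYP1A2_82402 (9.55 CPM, against 0 and 0). It is part of the C1 reference of every trichostatin A change. Its summed hepatocyte markers were 13034 CPM, against 51226 and 55385 CPM in replicates 1 and 2, its biliary markers 107 CPM, against 107 and 73.3, and its stellate or mesenchymal markers 359 CPM, against 267 and 223. The part of these marker levels in the member values was not tested.

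The second CYP1A1 probe, CYP1A1_1698, had lower counts, with a median of 6 over all libraries. In scriptaid it was 0.619, 0.96 and 0.581 CPM at C1, 211, 192 and 58.3 CPM at C4, and 70.5, 50.5 and 11 CPM at C5. All C4 and C5 libraries lay above C1, and the change was 7.68 at C4 (adjusted p = 0.000136) and 5.90 at C5 (SE 0.902, adjusted p = 8.52e-05) by edgeR. In valproic acid its C1 libraries held 0, 0 and 3 counts in ascending order and the C5 libraries 88 counts in sum. Summed counts were divided by the summed scaled library sizes of the group, and the ratio of C5 to C1 was 29.1. Its exact 95% counting interval of 9.62 to 144 covers counting error only. In vorinostat its C1 libraries held 2 counts in sum, the C3 libraries 28 and the C5 libraries 16, with a C5 ratio of 14.2 (interval 3.35 to 128). So at C5 in vorinostat this probe was called (3.72, adjusted p = 0.012) while CYP1A1_10775 was not, and without replicate 1 its adjusted p was 0.138.

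The probes also disagreed in 1 library. Over the 9 libraries with at least 50 counts of CYP1A1_1698, all of scriptaid, CYP1A1_10775 had 5.68 to 12.9 times the counts of CYP1A1_1698 in 8. In replicate 3 of scriptaid C4 the ratio was 89.3, from 7142 and 80 counts. This library held the highest CYP1A1_10775 level of all 118. Without replicate 3 the C4 change of CYP1A1_10775 was 6.39 (adjusted p = 2.05e-06) and that of CYP1A1_1698 was 7.93 (adjusted p = 4.9e-06). The same library stood apart in AHR, at 134 CPM against 25.9 and 37.8 CPM in replicates 1 and 2.

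**Figure D3:**
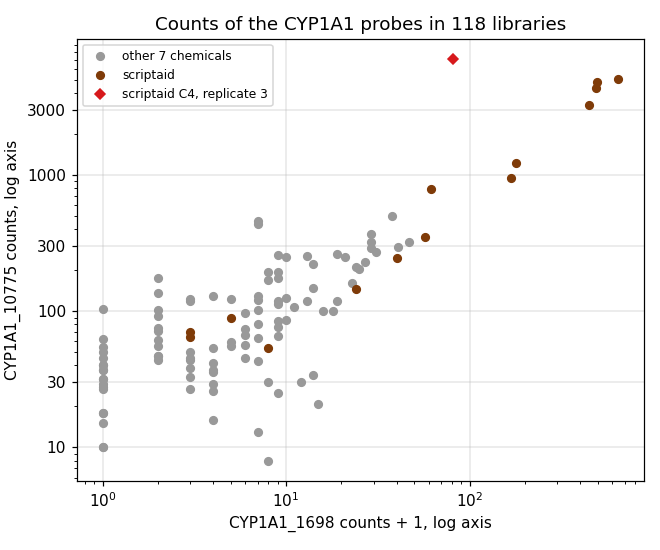
Counts of CYP1A1_10775 (y axis) against counts plus 1 of CYP1A1_1698 (x axis), both on log axes, for each of the 118 libraries. Scriptaid libraries are brown and those of the other 7 chemicals grey. The red diamond, replicate 3 of scriptaid C4, holds 7142 counts of the one probe and 80 of the other.

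CYP1A2, which oxidises caffeine among other compounds, was called at lower concentrations in scriptaid and not at C5. CYP1A2_82402 in scriptaid was 19.2, 23 and 21.2 CPM at C1, 49.2, 72 and 62.7 at C2, 166, 124 and 198 at C3, 203, 141 and 173 at C4, and 49.1, 60.5 and 6.2 at C5. The C2, C3 and C4 libraries all lay above C1, while replicate 3 at C5 lay below C1 and replicates 1 and 2 above it. The change was 2.95 at C3 (SE 0.481, adjusted p = 0.00384), 3.07 at C4 (SE 0.484, adjusted p = 0.00102) and 0.95 at C5 (SE 0.465, adjusted p = 0.134) by edgeR. Without replicate 3 the C5 change was 1.43 (adjusted p = 0.000332). The other probe, CYP1A2_1699, was 4.64, 1.68 and 3.78 CPM at C1 and 22.9, 22.8 and 48.1 CPM at C4. Its groups did not overlap and its change was 3.25 (SE 0.591, adjusted p = 0.00321).

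Outside scriptaid CYP1A2_82402 was sparse, with a median of 9.5 counts over all libraries. At C5 0 of 7 chemicals were called by edgeR, 1 had an unadjusted p under 0.05, and DESeq2 called 1, valproic acid. By trend edgeR called valproic acid (2.57, SE 0.786, adjusted p = 0.0239). There the C1 libraries held 4 counts in sum and the C5 libraries 35, a ratio of 8.67 with a counting interval of 3.1 to 33.6. In mocetinostat C2 the probe was 116, 40 and 8.2 CPM against 2.9, 4.98 and 7.54 CPM at C1. The replicates spread over a wide range and the change of 3.51 missed the threshold (adjusted p = 0.0759), while without replicate 3 it was 4.39 (adjusted p = 0.00389). In this group CYP1A1_10775 and CYP1A2_82402 were both high in replicates 1 and 2 and close to C1 in replicate 3.

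CYP1B1, the CYP1 enzyme known from tissues outside the liver, rose at C5 in scriptaid, tacedinaline and vorinostat, 3 of 8 chemicals. In scriptaid CYP1B1_17315 was 7.43, 3.6 and 6.98 CPM at C1, 35.9, 254 and 152 at C3, 208, 353 and 81.6 at C4, and 133, 139 and 23.8 at C5. All libraries from C2 upwards lay above C1. The change was 4.64 at C3 (adjusted p = 0.00314), 5.20 at C4 (SE 0.743, adjusted p = 0.000466) and 4.11 at C5 (SE 0.717, adjusted p = 0.000298, 17.3-fold) by edgeR. In tacedinaline it was 3.37, 7.4 and 6.1 CPM at C1 and 24.7, 18.1 and 12.6 CPM at C5, a change of 1.71 (SE 0.575, adjusted p = 0.0141). In vorinostat it was 3.35, 4.53 and 3.73 CPM at C1 and 16.3, 13.6 and 11.8 CPM at C5, a change of 1.91 (SE 0.688, adjusted p = 0.0198). The C5 libraries lay above C1 in both chemicals, and neither was called without replicate 1 (adjusted p = 0.134 and 0.14). In the other 5 chemicals the C5 change lay between -1.26 in trichostatin A and 0.63 in mocetinostat and was not called. The trichostatin A value was -0.65 without replicate 3 of its C1 (edgeR adjusted p = 0.633).

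**Figure D4:**
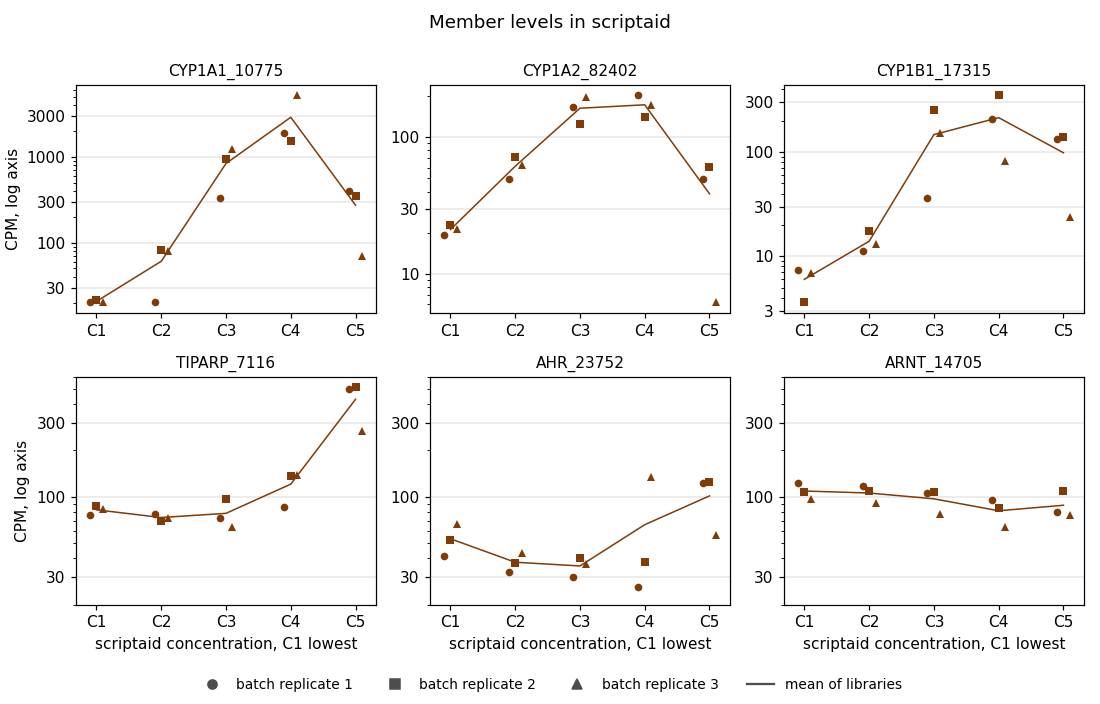
Levels of 6 member probes in CPM (log axis) at 5 scriptaid concentrations (x axis). Symbols are single libraries by HepaRG batch and lines join group means. The group means of CYP1A1, CYP1A2 and CYP1B1 are highest at C4 and lower at C5. The C3 and C4 libraries of CYP1A2 and of CYP1B1 overlap. TIPARP reaches 267 to 517 CPM only at C5, and ARNT stays between 64.1 and 123 CPM.

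The receptor gene AHR rose at C5 in 5 of 8 chemicals, apicidin, tacedinaline, vorinostat, mocetinostat and panobinostat. The largest change was in apicidin, with 51.3, 41.9 and 63.1 CPM at C1 and 151, 127 and 193 CPM at C5, a change of 1.60 (SE 0.19, adjusted p = 2.07e-06, 3.04-fold) by edgeR. Tacedinaline went from 32.8, 60.4 and 47.6 CPM to 103, 103 and 89.9 CPM, a change of 1.11 (SE 0.193, adjusted p = 8.49e-06). Vorinostat went from 41.3, 62.7 and 38.2 CPM to 80, 112 and 93.7 CPM, a change of 1.11 (SE 0.229, adjusted p = 0.000133). In these 3 chemicals every C5 library lay above every C1 library. Mocetinostat C5 held 74.2, 85.9 and 90.9 CPM against 43.2, 62.3 and 53.6 at C1 (0.74, adjusted p = 0.0164), and its C3 libraries were higher, at 109, 144 and 153 CPM (2.6-fold, adjusted p = 0.000591). Panobinostat C5 held 82.6, 58.9 and 85.2 CPM against 50.9, 34 and 52.2 (0.71, adjusted p = 0.0332). Both lay apart from C1, but the mocetinostat call at C5 was lost when any 1 replicate was left out and without the filter on low counts, and the panobinostat call without replicate 1 or 3.

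In scriptaid AHR was 41.2, 52.8 and 66.3 CPM at C1, 25.9, 37.8 and 134 at C4 and 122, 125 and 56.7 at C5. The groups overlapped through replicate 3 at both concentrations, and the C5 change was 1.00 (SE 0.449, adjusted p = 0.103). Without replicate 3 it was 1.44 (adjusted p = 0.000136), and the C4 value was -0.52 (adjusted p = 0.25). Valproic acid C5 held 56.9, 58.1 and 62.1 CPM against 41.6, 36.6 and 38.6 at C1, which did not overlap but missed the threshold (0.61, SE 0.211, adjusted p = 0.067). Trichostatin A held 43.5, 39.2 and 49.7 CPM against 31.4, 30.2 and 37.6, also without overlap (0.43, SE 0.225, adjusted p = 0.565). The C5 changes of AHR in the 8 chemicals were not found to differ from each other (edgeR adjusted p = 0.168 for the difference).

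**Figure D5:**
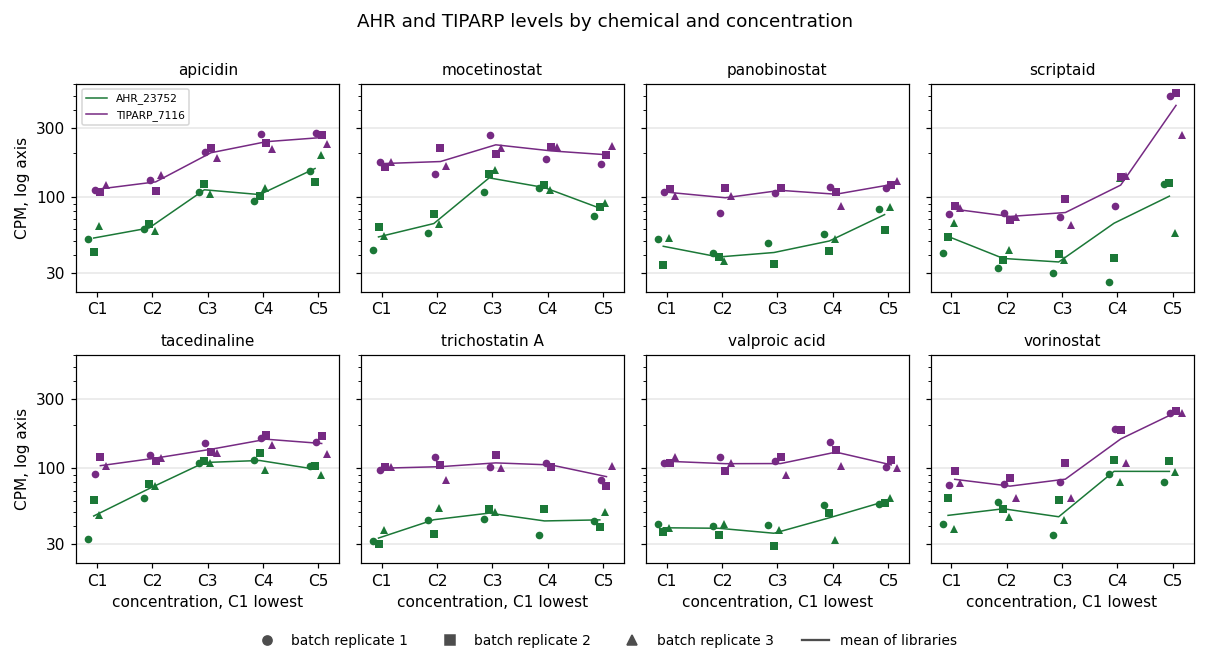
AHR_23752 (green) and TIPARP_7116 (purple) levels in CPM (log axis) at 5 concentrations (x axis) of each chemical, with single libraries by HepaRG batch as symbols and group means joined by lines. The probes' levels are not comparable with each other. AHR reaches 127 to 193 CPM at apicidin C5, and TIPARP reaches 240 to 248 CPM at vorinostat C5.

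ARNT, the partner that AHR needs to bind DNA, was called in no chemical at any concentration or by trend. Over all 118 libraries ARNT_14705 lay between 64.1 and 168 CPM, the narrowest range, relative to its median of 109, among the 5 rows tested in 8 chemicals. Its C5 change ran from -0.44 in mocetinostat to 0.11 in vorinostat, with SEs of 0.161 to 0.245. Of its 40 tests in edgeR 3 had an unadjusted p under 0.05, and DESeq2 called 0 as well, with 4 at that level. Its largest change was in mocetinostat C5, with 100, 93.6 and 99.3 CPM against 144, 110 and 168 CPM at C1, which did not overlap. Its trend of -0.48 passed the adjusted p (0.0438) and stayed under the fold of 1.5.

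AHRR, the receptor's repressor, was at or near the detection limit. AHRR_26810 had at most 3 counts in 95 of 118 libraries and 0 in 59, and AHRR_26811 at most 3 counts in 96 and 0 in 64. The highest counts were 23 and 17. AHRR_26810 was highest in vorinostat C5, with 0.816, 10.8 and 5.89 CPM. Its libraries held 34 counts in sum there and 1 at C1, a ratio of 60.5 with a counting interval of 10.2 to 2459, and replicate 1 alone lay low. In apicidin its C1 libraries held 0 counts in all and its C5 libraries 18 in sum, which is at least 2.12-fold higher with the floor set at 3 counts per library. In the main fits of single chemicals no edgeR test was made for either probe, since neither passed the filter. Both entered the setting without the filter and the edgeR fit over all 118 libraries. In the latter their C5 changes were not found to differ between chemicals (adjusted p = 0.137 for AHRR_26810 and 0.372 for AHRR_26811).

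TIPARP, the feedback regulator, rose at C5 in scriptaid, vorinostat and apicidin, 3 of 8 chemicals. In scriptaid TIPARP_7116 was 76.2, 86.9 and 83.7 CPM at C1, 73, 97.4 and 63.8 at C3, 86, 137 and 139 at C4 and 498, 517 and 267 at C5. The C5 libraries lay far above all others, while C3 overlapped C1. The C5 change was 2.45 (SE 0.285, adjusted p = 5.39e-06, 5.45-fold) by edgeR. In vorinostat it was 77.1, 95.4 and 79.5 CPM at C1, 80.9, 109 and 62.7 at C3, 186, 184 and 108 at C4, and 240, 248 and 242 at C5. The C5 replicates differed little, and the change was 1.64 (SE 0.202, adjusted p = 3.33e-08, 3.11-fold). In apicidin the level was 111, 109 and 121 CPM at C1, 203, 217 and 185 at C3 and 274, 266 and 230 at C5. The groups did not overlap, with a change of 0.83 at C3 (adjusted p = 0.000691) and 1.19 at C5 (SE 0.154, adjusted p = 6.07e-06). Tacedinaline C5 passed the adjusted p (0.57, adjusted p = 0.00369) but lay under the fold of 1.5, and was called at C4 (0.65, adjusted p = 0.00121).

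Below C5 the members gave 31 calls in all, and all were rises. At C2 there were 0 of 54 by edgeR, 10 with an unadjusted p under 0.05 and 2 by DESeq2. At C3 scriptaid had 4 of 8 member rows called, beside 0.461% of all its features that rose, and at C4 5 of 8, beside 2.2%. Apicidin had 3 of 7 at C3 (6.94%) and 3 of 7 at C4 (11.1%), and tacedinaline 2 of 5 at C3 (5.44%) and 2 of 5 at C4 (16.3%). Vorinostat had 2 of 7 at C3 (3.18%) and 4 of 7 at C4 (15.6%), valproic acid 2 of 7 at C4 (5.51%), and mocetinostat 1 of 7 at C3 (6.44%) and at C4 (12.1%). The 5 rows called at C4 in scriptaid were both probes of CYP1A1, both of CYP1A2 and that of CYP1B1, so they stand for fewer genes. CYP1A2_1699 passed the filter on low counts in scriptaid only, where it was high. The shares of all features are given as background, and the members were not tested as a set.

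The levels that were highest below C5 were compared with C5 directly, a contrast chosen after the values were seen. From C4 to C5 in scriptaid 4 of 8 member rows fell, beside 16.5% of all features, and 1 rose, beside 8.71%. CYP1A1_10775 fell by 3.38 on the log2 scale (SE 0.648, adjusted p = 0.00107), CYP1A2_1699 by 2.87 and CYP1A2_82402 by 2.12 (adjusted p = 0.00173 and 0.00282) by edgeR. CYP1A1_1698 fell by 1.78 (adjusted p = 0.0446), which was not called without replicate 1 or 2, while CYP1B1 changed by -1.09 (adjusted p = 0.2). Without replicate 3 the CYP1A1_10775 value was -2.18 (adjusted p = 0.000551). The row that rose was TIPARP, by 1.85 (SE 0.28, adjusted p = 0.000151). In vorinostat 2 of 7 rows fell from C3 to C5, beside 21.6% of all features, and 2 rose, beside 16.9%. CYP1A1_10775 fell by 2.89 there (SE 0.375, adjusted p = 1.46e-07), and AHR and TIPARP rose by 1.12 and 1.60. CYP1A2_82402, the other fall, had at most 5.87 CPM at C3 and was called no longer without replicate 1 or 3. In tacedinaline CYP1A1_10775 fell by 1.06 from C3 to C5 (adjusted p = 0.00872, 1 of 5 rows, beside 13.2%) and CYP1B1 rose by 2.07 (1 of 5, beside 8.48%). The fall of CYP1A1 was not called without replicate 1 or 2. The hepatocyte markers fell over the same steps, and their part in these changes was not tested.

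The size of the C5 change was compared between the 8 chemicals in 1 edgeR fit of all 118 libraries, in which 30.3% of all features differed. Concentrations differ between chemicals, so these are differences between C5 groups and not between chemicals at 1 dose. Of the members 4 rows differed, TIPARP_7116 (adjusted p = 7.54e-16), CYP1A1_10775 (1.46e-08), CYP1B1_17315 (4.52e-07) and CYP1A1_1698 (0.0158). For TIPARP 15 of the 28 pairs of chemicals differed, with the scriptaid change larger than that of mocetinostat by 2.18 (SE 0.265) and of tacedinaline by 1.88 (SE 0.267). For CYP1A1_10775 12 pairs differed, and each of them set panobinostat, scriptaid or valproic acid against mocetinostat, tacedinaline, trichostatin A or vorinostat. The scriptaid change exceeded that of vorinostat, another hydroxamic acid, by 3.96 (SE 0.718, adjusted p = 0.000199), at 94.5 against 23.5 µM. The panobinostat change exceeded that of trichostatin A, also hydroxamic acids, by 2.53 (SE 0.734, adjusted p = 0.0274), at 0.084 against 1.5237 µM. Without replicate 3 of its C1 the trichostatin A change in its own fit was 1.61 instead of 0.64. That library entered every trichostatin A pair, and the pairs were not tested without it. For CYP1B1 9 pairs differed, 5 of them with scriptaid. AHR differed in 1 of the 28 pairs, apicidin against trichostatin A, by 1.18 (SE 0.372, adjusted p = 0.0208). CYP1A2_82402 differed in 1 pair too, valproic acid against vorinostat, by 5.11 (SE 1.74, adjusted p = 0.0354). Neither row passed the test over all 8 chemicals (adjusted p = 0.168 and 0.103). The adjustment within a pair does not cover the number of pairs. ARNT differed in 0 of the 28 pairs.

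The level at C1 was compared between the chemicals of a plate, since C1 is the reference of every change. On plate H CYP1A1_10775 differed (adjusted p = 0.00552), with 3.05 to 8.81 CPM in valproic acid and panobinostat, 14.9 to 30.4 CPM in apicidin and mocetinostat, and 2.89 to 16.4 CPM in trichostatin A. TIPARP differed too (adjusted p = 0.0316), with 162 to 174 CPM in mocetinostat against 97 to 121 CPM in the other 4. On this plate 1.66% of all features differed. On plate E CYP1A2_82402 differed (adjusted p = 0.0127, where 0.147% of features did), with 19.2 to 23 CPM in scriptaid against 0.296 to 5.89 CPM in tacedinaline and vorinostat. Of these 3 differences 0 to 1 passed the threshold when any 1 replicate was left out. The slope along concentration differed between HepaRG batches in 0 of 54 tests by edgeR, where 0% of all features differed in each chemical, with 1 at an unadjusted p under 0.05.

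The other genes of the pathway were read at C5 from lists of known roles. The cytosolic complex that holds AHR gave 4 rises (12.5%) and 0 falls in 32 tests, beside 11.6% and 13.4% of all 101732 tests, with a median change of 0.02, equal to that over all tests. HSP90AA1, the chaperone, rose in mocetinostat and tacedinaline, by up to 1.60, and PTGES3, its co-chaperone p23, in tacedinaline and vorinostat. The relatives of AHR and ARNT in the bHLH-PAS family gave 10 rises (15.9%) and 11 falls (17.5%) in 63 tests, with a median of -0.21. ARNT2, a close relative of ARNT, fell in 7 of 8 chemicals, to -3.33 in vorinostat, where ARNT itself changed by 0.11. HIF1A, the hypoxia factor that also pairs with ARNT, rose in 4 chemicals, by up to 1.59 in apicidin, and NPAS2, a circadian factor, fell in mocetinostat, tacedinaline and vorinostat, by up to 1.41.

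Further genes described as AHR targets gave 8 rises (7.92%) and 31 falls (30.7%) in 101 tests at C5, with a median of -0.30. In scriptaid the summed level of these 17 features was 3328 to 3817 CPM at C1, 4173 to 4665 at C3, 4895 to 12125 at C4 and 1105 to 2880 at C5. The C4 libraries were the highest but spread widely, with a mean of 7543 CPM. The summed bHLH-PAS relatives spread widely in that group too, from 192 to 424 CPM, and the summed coregulators from 1049 to 2546 CPM. The summed cytosolic complex spread less there, from 757 to 842 CPM. In vorinostat the sum was 2627 to 2994 CPM at C1, 2192 to 2485 at C3 and 701 to 873 at C5. SERPINB2, a plasminogen activator inhibitor, rose in 7 of 8 chemicals with a median of 3.65. Both UGT1A6 probes, for an enzyme that conjugates phenols, fell in 5 chemicals, to -4.72 in vorinostat and -4.55 in tacedinaline. The UGT1A genes share exons, so these probes may count several of them. The tryptophan-kynurenine enzymes, which form endogenous AHR ligands or their precursors, gave 0 rises and 21 falls (36.2%) in 58 tests, with a median of -0.98. KYNU and AFMID fell in 7 chemicals and TDO2, the hepatic tryptophan dioxygenase, in 5, to -6.24 in tacedinaline.

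The electron donors of P450 enzymes gave 3 rises (9.68%) and 2 falls (6.45%) in 31 tests, with a median of 0.04. CYB5R3 rose in tacedinaline and vorinostat, CYB5A fell in apicidin by 3.65, and POR, the P450 reductase, fell in panobinostat by 1.27. The coregulators gave 17 rises (11.3%) and 15 falls (9.93%) in 151 tests, with a median of -0.04, so their shares lay near or below those of all tests. NCOA2 fell in 7 chemicals and NCOA3 rose in 5, by up to 1.80 in vorinostat, while the acetyltransferase EP300 fell in 5. The hepatocyte markers gave 0 rises and 100 falls (83.3%) in 120 tests, with a median of -3.16. FABP1_11582, a fatty acid binding protein, and both probes of CYP3A4, a major drug-metabolising P450, fell in 7 chemicals each, with medians of -6.10, -5.93 (CYP3A4_90076) and -5.66 (CYP3A4_88797). The biliary markers gave 11 rises (28.2%) and 1 fall (2.56%) in 39 tests, with a median of 0.46. SPP1, which encodes osteopontin, and the transcription factor SOX9 rose in 5 chemicals each (medians 1.27 and 1.06). The stellate or mesenchymal markers gave 8 rises (12.1%) and 27 falls (40.9%) in 66 tests, with a median of -0.81. The collagen COL3A1_28516 and smooth muscle actin ACTA2 fell in 7 chemicals each (medians -2.45 and -1.52), whereas the collagen COL1A1 rose in 6 (1.63). No list was tested as a set.

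The features most like each member were found by Pearson correlation over the 32 changes from C1 (C2 to C5 of 8 chemicals) among 11288 features tested in all 8. The points share the C1 groups within a chemical and the plates, so the values are descriptions. FKBP4, an HSP90 co-chaperone, was most like CYP1A1_10775 (r = 0.8), followed by RFESD and DHRS9 (0.74 each). ALDOA was most like CYP1B1 (0.772), followed by NR1D2 and NR1D1 (0.757 and 0.742), and TLE3 most like AHR (0.876), whose next features, WDR78 and SH3PXD2B, had 0.872 and 0.871. YAF2 was most like ARNT (0.807), followed by FOXO3 and MUC20 (0.801 and 0.793), and GAPVD1 most like TIPARP (0.834), followed by MPP1 and AK8 (0.829 and 0.823). With RLE size factors, another scaling, YAF2, FOXO3 and MUC20 had 0.74, 0.777 and 0.762, so their order was not kept. The 3 features of AHR then had 0.878, 0.878 and 0.879. Among the members the correlation over the same changes was 0.841 between the CYP1A1 probes, 0.72 between CYP1A1_10775 and CYP1A2_82402, and 0.609 between AHR and TIPARP. That between CYP1A1_10775 and AHR was -0.354, and between CYP1A1_10775 and TIPARP 0.0248. In scriptaid and vorinostat, as shown above, the CYP1A1_10775 level was highest at C4 and C3 and the TIPARP level at C5. CYP1A1_1698 in vorinostat had a mean of 5.48 CPM at C3 and 5.98 CPM at C4.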

How the data were processed

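TempO-Seq hybridises detector probe pairs to transcripts in cell lysates, ligates them, amplifies them with a barcode and sequences them. The authors deposited raw, unnormalised counts of reads for each probe, in whole numbers. The submitters' processing notes name bcl2fastq 2.20.422, fastp 0.23.2, STAR 2.7.10b and DESeq2 1.38.0 with no roles. The genome build and the probe annotation are not given in the sources used here, so no probe is placed. Whether related genes such as CYP1A1 and CYP1A2 share reads could not be checked. Of 22069 rows, 22068 had a value in each library and 1, the last row, was left out. Every value column belonged to a sample. Total counts of 1061359 to 5250260 limit rows of few counts most.

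Members and gene lists were chosen with earlier results of these data known. The text names every member row, up to 3 features of each list (those called at C5 in the most chemicals) and the 3 features most like each member tested in 8 chemicals, except for a list feature that is not reported here. Counts of each chemical were filtered (filterByExpr), scaled by TMM and fitted with edgeR 4.0.16 (R 4.3.3, limma 3.58.1) with a term per concentration, without a batch term. A quasi-likelihood F test gave p-values, adjusted over all features tested. Calls needed an adjusted p under 0.05 and a fold of 1.5, and SE is the size of the log2 change over the root of F. Log2 CPM used a prior count of 2. Differences between chemicals and C1 levels came from a fit over all 118 libraries, and pairs were adjusted over features within each pair. Intervals of count ratios are exact and conditional, and the floor for a group at 0 was 3 counts per library. Replicate numbers name HepaRG batches per the labels, so they pair the libraries. Deviations from the group mean correlated between same-batch libraries with a median r of 0.0361 over 232 pairs, against -0.0145 over 464 pairs of different batches. Alternatives were RLE size factors, no filter, a replicate block, leaving out each replicate, the fit over all libraries and DESeq2 1.42.0. The steps were tested on simulated data. C5 against C3 and C4 was added after the values were seen.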

Additional observations from a re-analysis of the deposited data

Results flagged for a closer look

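The C5 change differed between the 8 chemicals, by the test of the difference in the edgeR fit over all 118 libraries, for 4 member probes. They were TIPARP_7116 (adjusted p = 7.54e-16), CYP1A1_10775 (adjusted p = 1.46e-08), CYP1B1_17315 (adjusted p = 4.52e-07) and CYP1A1_1698 (adjusted p = 0.0158). The TIPARP change ran from -0.18 in trichostatin A to 2.45 in scriptaid, and the CYP1A1_10775 change from -0.14 in vorinostat to 3.99 in valproic acid. The CYP1B1 change ran from -1.26 in trichostatin A to 4.11 in scriptaid, and the CYP1A1_1698 change from 0.87 in mocetinostat to 5.90 in scriptaid. Without replicate 3 of trichostatin A C1 the CYP1B1 change in that chemical was -0.65. For CYP1A1_10775 the mean C5 levels in valproic acid, panobinostat and apicidin were 68.2, 58.2 and 60.2 CPM. Their mean C1 levels were 4.27, 6.52 and 18.4 CPM, and the part of these references in the differences was not tested. Scriptaid, the chemical with 3 of the 4 largest values, is also the one with the highest concentrations among those whose unit is clear, and chemical and concentration cannot be told apart in this comparison.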

How the results depend on the processing

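Of 89 called member changes 0 changed sign under any alternative, and RLE size factors and the replicate block kept all of them. The block, which uses the pairing by HepaRG batch, gave 18 rises at C5, as without it, and 21 by trend against 19. The calls no longer past the threshold were 31 of 89 without replicate 1, 21 without replicate 2, 14 without replicate 3, 1 of 89 without the filter on low counts, and, of the 68 changes from C1 or by trend, 9 in the fit over all 118 libraries and 1 in DESeq2. Falling calls at C5 were 0 in the main setting and 1 in the fit over all 118 libraries (CYP1A2_1699 in mocetinostat). By trend they were 0 in the main setting, 2 in the fit over all libraries (both CYP1A2 probes in mocetinostat) and 1 in DESeq2 (CYP1A2_82402 in mocetinostat). Rows whose C1 level differed within a plate were 3 in the main setting and 0 to 1 without 1 replicate. The causes were not tested. Rises at C5 ranged from 14 to 21 over all settings. Without replicate 3 of trichostatin A C1, the CYP1A2_82402 trend in that chemical was 4.37 (adjusted p = 0.0373), against 0.96 (adjusted p = 0.853) with it. Rows at a few counts, such as AHRR and CYP1A2_1699, are limited by depth.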
